A study of Mus musculus with 49 samples.

Results

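The set comprised 45 mouse interferon-stimulated genes that encode antiviral effectors, nucleic acid sensors, the ISG15 system and related proteins. They were taken by gene symbol from a written list, which was chosen with earlier results of these data known. The macrophage table listed 14896 genes and held a row for each of the 45. So did the tables of naive and pathogenic Th17 cells, while Ifi204 was not analysed in the non-pathogenic Th17 table, which left 44 there.

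All cells came from C57BL/6 mice that were wild type (WT), Elf4 knockout (KO) or carried Elf4 W250S, an amino-acid substitution in an ETS-family transcription factor. Macrophages (BMDM) were derived from bone marrow over 7 days in the growth factor M-CSF. They were WT or KO and were sampled untreated, or after 4 or 16 h with 100 ng/ml lipopolysaccharide (LPS, the cell-wall component of Gram-negative bacteria that TLR4 detects), and there were 3 libraries in each of the 6 groups. Untreated naive CD4 T cells formed 2 sets. One held 4 libraries labelled KO and 3 of WT, the other 3 of W250S and 3 separate ones of WT. Th17 cultures of W250S and WT CD4 T cells lasted 48 h. The pathogenic culture received IL-1 beta and IL-23 beside IL-6, and the non-pathogenic one received TGF-beta beside IL-6, 3 libraries per genotype and culture. Open chromatin was measured by ATAC-seq in naive CD4 T cells, 3 libraries labelled KO and 3 WT. The labels do not say how the KO allele was made, and for the T cell libraries they do not say whether each came from a separate animal, so that p-values there measure the spread between these libraries. The macrophage table gives a different number for each of its 18 libraries, and within each time these run in the same order of genotype and replicate. Whether they stand for 18 separate animals was not established, so the macrophage p-values too measure the spread between libraries. Within a genotype, libraries of 1 replicate number at different times tended to deviate alike from their group means. Their correlations ran from 0.057 to 0.533, against -0.484 to 0.1 for different numbers. The main tests treated the 18 as separate, and the labels do not say whether same-numbered libraries share an origin.

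Type I interferons bind the receptor Ifnar1/Ifnar2 and activate the kinases Tyk2 and Jak1, which lead to the assembly of ISGF3. This complex, which holds Stat2 and Irf9, binds the interferon-stimulated response element (ISRE) in the promoters of interferon-stimulated genes. In macrophages LPS starts this circuit itself, since TLR4 signals through Ticam1, Tbk1 and Irf3 to Ifnb1, and the secreted interferon beta then acts back on the cells.

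Expression is given as read counts scaled to library size (CPM), and differences as log2(CPM + 1), which understates the change of genes with low values. A gene was tested where at least 3 libraries of a table reached 1 CPM, and called where limma gave a Benjamini-Hochberg adjusted p below 0.05 over all genes tested, two-sided. In what follows "rose" and "fell" are used of called genes.

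Promoter sequence is shown because the ISRE is the stretch that ISGF3 is known to bind. RefSeq promoter windows (GRCm38.p6, 250 bases before to 50 after a start) were matched for 31 of the 45 members. The core of the ISRE, a pair of GAAA blocks that lie 2 bases apart, on either strand, was found in 11 of the 31 (35.5%), against 3.99% of 27025 genes. The GAS motif, TTCNNNGAA, was found in 7 (22.6%, against 9.55% of genes), and the ETS core CCGGAA on either strand in 3 (9.68%, against 16.7%). The 6 stretches below lie before the start, on the gene's strand, with each match in capitals. A pair of TTTC blocks is the same core read on the other strand.
Rsad2, chr12:26456543-26456592: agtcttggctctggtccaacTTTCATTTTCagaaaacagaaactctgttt
Isg15, chr4:156200855-156200916: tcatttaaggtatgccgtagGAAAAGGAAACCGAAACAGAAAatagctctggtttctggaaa
Bst2, chr8:71537567-71537622: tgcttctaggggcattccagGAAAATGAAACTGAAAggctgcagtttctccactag
Ddx60, chr8:61928014-61928086: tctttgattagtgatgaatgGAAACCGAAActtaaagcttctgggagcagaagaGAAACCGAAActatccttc
Trim30a, chr7:104465200-104465249: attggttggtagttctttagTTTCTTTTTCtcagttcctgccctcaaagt
Trim30d, chr7:104507861-104507910: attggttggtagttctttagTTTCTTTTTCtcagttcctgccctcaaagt
The Isg15 stretch held 3 overlapping matches, those of Bst2 and Ddx60 held 2 each, and the 50 bases of Trim30a and Trim30d were identical. Ifih1, Ddx58, Trim21, Eif2ak2 and Ifitm3 also held a match within their windows. A match is a run of letters and was not tested as a binding site. Trim30a and Trim30d, Mx1 and Mx2, Ifi204 and Ms4a4c belong to families of related copies, alike to differing degrees. How any shared reads were counted is not given in the sources used here, so their values are uncertain to that extent.

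The values rest on about 11.0 to 16.0 M reads per BMDM library and 23.4 to 37.7 M per T cell library, as estimated from the steps between low CPM values. The listed CPM summed to 950599 to 954161 per BMDM library but 472848 to 543838 per T cell library, so the T cell tables do not list all scaled reads. In the naive W250S set the sum ran from 489990 to 535941, highest in W250S replicate 3. Elf4 itself fell in KO macrophages, from 132 ± 2.52 to 29.5 ± 2.65 CPM at 16 h (SD, n = 3 each; log2 difference -2.12, limma adjusted p = 4.56e-09). In naive T cells it stood at 189 ± 13.8 (SD, n = 4) in the libraries labelled KO against 191 ± 4.87 CPM (SD, n = 3), so this value does not separate the labels there and every direction drawn from them is that of "the libraries labelled KO". The W250S change is not visible in a transcript level. In untreated macrophages the members moved together between libraries of 1 group. KO replicate 3 held the highest KO value for 43 of 45 members and KO replicate 2 the lowest for 43, with median deviations from the group mean of 0.42 and -0.32 on the log2 scale. In untreated WT, replicate 1 was highest for 41.

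LPS raised nearly the whole set within 4 h in both genotypes. In WT cells 43 of 45 members rose and 1 fell, with a median difference of 2.54, while 86.8% of all 12058 genes tested were called (15.6% up, 71.3% down) and their median was -0.81. With the libraries scaled by median ratios the median of all genes was -0.03 and that of the members 3.45, all 45 being called up, and the calls over all genes changed from 1876 up and 8593 down to 4273 and 4480. KO cells gave the same counts at 4 h, 43 up and 1 down (86.4% of all genes called, 15.6% up), with a median of 2.25. At 16 h against untreated, 45 of 45 rose in WT (median 1.85, 74.8% of genes called, 18.3% up) and 43 in KO (median 1.26, 67.9% called, 17.8% up). These comparisons share their untreated libraries within a genotype.

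The members were sorted into an early and a late form by the time of their highest mean. This split is not sharp, since the WT 16 h mean ran from 13.9% (Cmpk2) to 312% (Ms4a4c) of the 4 h mean. Ifi35 (99.9%) and Xaf1 (99.3%) lay at the divide. The split was not recomputed with median-ratio scaling. The WT mean was highest at 4 h for 35 members and at 16 h for 10, and the KO mean at 4 h for 36 and at 16 h for 9. Between 4 and 16 h in WT, 29 members fell, 9 rose and 7 were not called (73.2% of all genes called, 51% up and 22.1% down). With median-ratio scaling 34 fell and 6 rose, and the calls over all genes went from 6153 up and 2669 down to 3970 and 4424. The early form was steepest for Rsad2, which encodes viperin, an enzyme that makes a chain-terminating nucleotide, and for its chromosomal neighbour Cmpk2, a mitochondrial nucleotide kinase. Rsad2 stood at 67.9, 40.2 and 56.7 CPM in untreated WT replicates 1, 2 and 3, at 12239, 12304 and 11330.3 after 4 h, and at 1784, 1739 and 1883 after 16 h. The 3 times did not overlap, and the 16 h mean was 15.1% of the 4 h mean. Daxx, a histone chaperone (28.8%), Ifih1, the RNA sensor MDA5 (19.5%), and Trim21, a cytosolic antibody receptor (31.2%), had the same form. The late form was called for Isg20, an exonuclease, Bst2, the virion tether known as tetherin, Ifitm3, which blocks viral membrane fusion, Ly6e, Uba7, Ifi44, Ifi27l2a, Lgals3bp and Ms4a4c. Isg20, Lgals3bp and Uba7 lost this call with median-ratio scaling. Ms4a4c, a membrane protein gene, stood at 13.2, 7.41 and 9.94 CPM in untreated WT, at 452, 396 and 418 at 4 h, and at 1396, 1278 and 1272 at 16 h, a 16 h mean at 312% of that at 4 h. Ifi27l2a was the 1 member that fell at 4 h (-0.39 in WT, -0.41 in KO), and this direction turned with median-ratio scaling (0.51 and 0.45).

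**Figure D1:**
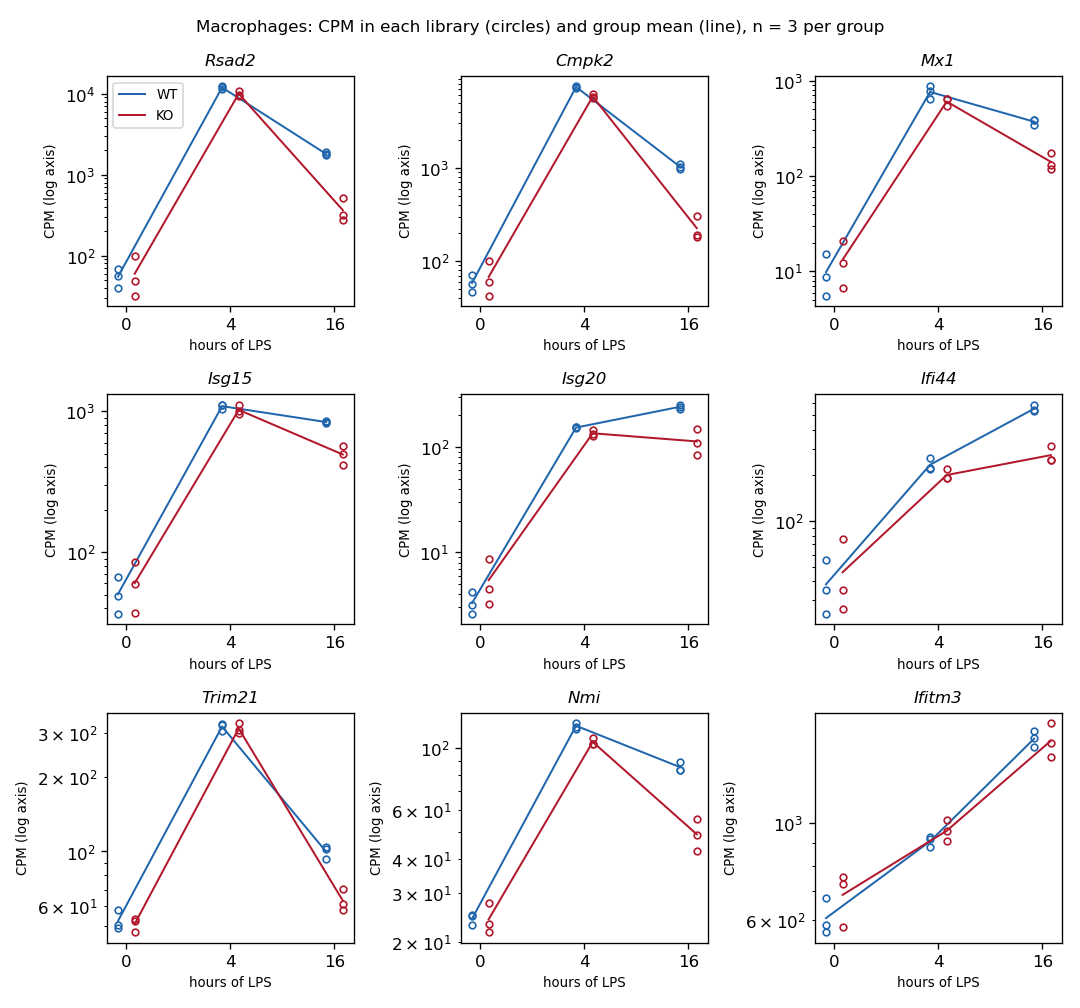
CPM on a log axis against hours of LPS (0, 4 and 16, drawn at equal steps) in WT and KO macrophages for 9 members. Circles are the 3 libraries of a group and lines join group means. Rsad2, Cmpk2, Mx1, Isg20 and Ifi44 part between genotypes at 16 h, while Ifitm3 at 16 h spans 1414 to 1692 CPM in KO and 1491 to 1622 in WT.

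Before LPS and at 4 h no member was called between KO and WT. In untreated cells the members' median difference was 0.13, with 3 at an unadjusted p under 0.05 and 0 of 45 called by limma (0.44% of all genes called). Leaving out KO replicate 3 gave 1 call, Trim14 (-0.48, limma adjusted p = 0.0218). At 4 h the median was -0.10 against 0.04 over all genes, and 40 of 45 differences were negative. No member reached even an unadjusted p under 0.05, where 4.19% of all genes were called, yet for 22 of 45 all KO libraries lay below all WT libraries (9.5% of all genes). Rsad2 at 4 h stood at 10903, 9777 and 9351 CPM in KO against 12239, 12304 and 11330.3 in WT, groups that did not overlap. Cmpk2 stood at 6152, 5719 and 5589 against 7472, 7438 and 7251 CPM and was called when the 6 libraries of that time were fitted alone (-0.35, limma adjusted p = 0.0332), the 1 member to be so.

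At 16 h the set was lower in KO cells almost throughout. Of 45 members 35 fell and 0 rose, all 45 differences were negative with a median of -0.54, and for 41 the groups did not overlap. Over all genes 30.5% were called (20.9% up, 9.65% down), 15.1% lay lower without overlap, and the median was 0.12. Median-ratio scaling gave 37 members down and 0 up, beside 1506 genes up and 1681 down in place of 2520 and 1163. Without each of the 6 libraries in turn, 25 to 33 of the 45 were called, and 24 of the 35 calls were kept every time. Fewer cells that answer and less RNA per cell cannot be told apart in such bulk libraries.

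Direct antiviral effectors had the widest range, with 8 of 10 called. Rsad2 stood at 508, 314 and 273 CPM in KO replicates 1, 2 and 3 and at 1784, 1739 and 1883 in WT, so that the KO mean was 20.3% of the WT mean (-2.35 ± 0.29 SE, limma adjusted p = 3.77e-05). Cmpk2 gave 309, 190.2 and 180.3 against 1014, 973 and 1096 CPM, 22% of WT (-2.22 ± 0.23 SE, limma adjusted p = 1.03e-05). In both, KO replicate 1 was the highest of the KO libraries and still far below every WT library. Mx1, a dynamin-like GTPase whose C57BL/6 allele is known to give no working protein, gave 174, 119 and 131 against 390.4, 338 and 384 CPM (-1.40 ± 0.30 SE, limma adjusted p = 0.00283). Isg20 gave 148, 83.6 and 108 against 241, 229.6 and 251 CPM (-1.12 ± 0.23 SE, limma adjusted p = 0.0018). Its 16 h mean was 158% of its 4 h mean in WT, a rise whose call was lost with median-ratio scaling, and 83.8% in KO. Mx2 (-0.97), Helz2, a helicase (-0.54), Samhd1, which degrades deoxynucleotides (-0.50), and Bst2 (-0.29) fell as well. Ly6e and Ifitm3 were not called, at -0.16 and -0.02. Ifitm3 stood at 1521, 1414 and 1692 CPM in KO and 1565, 1622 and 1491 in WT, with overlap. The call of Helz2 was lost without WT replicate 1, WT replicate 3 or KO replicate 3 (limma adjusted p up to 0.136), and that of Bst2 without any library but KO replicate 3 (up to 0.211).

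Of 8 nucleic acid sensors 6 fell. Ddx60, a helicase, gave 113, 93.6 and 94.4 CPM in KO and 179, 170.1 and 184 in WT (-0.82 ± 0.24 SE, limma adjusted p = 0.017). Ifih1 gave 273, 242 and 213 against 394, 367 and 380.2 CPM (-0.65 ± 0.17 SE, limma adjusted p = 0.00756). Neither overlapped. Ifi204, a DNA-binding PYHIN protein gene, stood at 709, 538 and 603 against 966, 934 and 933 CPM (-0.62 ± 0.18 SE, limma adjusted p = 0.0171), and Ddx58, the RNA sensor RIG-I, at 416, 386 and 339.5 against 545, 548 and 553 CPM (-0.53 ± 0.14 SE, limma adjusted p = 0.00863). Eif2ak2, the kinase PKR (-0.39), and Adar, which deaminates double-stranded RNA (-0.37), fell by less. Zbp1, a sensor of Z-form nucleic acid (-0.34), was not called though its groups did not overlap, and Dhx58, the RIG-I relative LGP2 (-0.08), overlapped with WT. Leaving out WT replicate 3 or KO replicate 2 ended the call of Ddx60 (limma adjusted p up to 0.0571), and WT replicate 1 or KO replicate 2 that of Ifi204 (up to 0.0756).

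The ISG15 system fell as a whole, 5 of 5. Isg15, a ubiquitin-like protein that is joined to other proteins, gave 567, 415 and 499 CPM in KO and 856, 821 and 843 in WT (-0.78 ± 0.22 SE, limma adjusted p = 0.0134). Its E1 enzyme gene Uba7 gave 220.4, 173 and 189.6 against 272, 263 and 289.9 CPM (-0.51 ± 0.14 SE, limma adjusted p = 0.0125). The KO libraries lay below all WT libraries for each, and both calls were lost without KO replicate 2 (limma adjusted p = 0.0645 and 0.0619). Herc6, the ligase gene that serves ISG15 in mouse, gave 284, 204 and 215 against 435, 406 and 418 CPM (-0.85 ± 0.16 SE, limma adjusted p = 0.00111). Usp18, which removes ISG15 and restrains the interferon receptor, gave 366, 299.9 and 300.2 against 594, 552 and 534 CPM (-0.80 ± 0.19 SE, limma adjusted p = 0.00456). Trim25, a ubiquitin ligase that acts on RIG-I, stood at -0.42.

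Among the other TRIM proteins 3 of 4 fell. Trim21 gave 70.4, 57.8 and 61.6 CPM in KO and 104, 93 and 103 in WT (-0.65 ± 0.08 SE, limma adjusted p = 5.13e-05). Trim14, a mitochondrial adaptor, gave 108, 96.1 and 96.9 against 155, 158 and 149.9 CPM (-0.62 ± 0.14 SE, limma adjusted p = 0.00387). Trim30a and Trim30d, whose promoter stretches above are identical, had like differences, -0.40 (called) and -0.41 (not called), and the call of Trim30a was lost without any library but KO replicate 1 (limma adjusted p up to 0.0784). Of the ADP-ribosyltransferases and their partner, Parp12 (-0.61 ± 0.12 SE, limma adjusted p = 0.00112), Parp10 (-0.61 ± 0.11 SE, limma adjusted p = 0.00107) and the ubiquitin ligase gene Dtx3l (-0.54 ± 0.17 SE, limma adjusted p = 0.0212) fell. Parp12 stood at 311, 259.5 and 230.4 CPM in KO and 399, 409 and 411 in WT. Dtx3l lost its call without WT replicate 1 or 3 or KO replicate 2 or 3 (up to 0.0688). Parp9, the partner of the Dtx3l protein, and Parp14 stood at -0.37 and -0.25 and were not called, though neither overlapped. The 3 nuclear body genes fell, Pml, the scaffold of these bodies (-0.65 ± 0.11 SE, limma adjusted p = 0.000591), Daxx (-0.58 ± 0.11 SE, limma adjusted p = 0.000976) and Sp100 (-0.54 ± 0.12 SE, limma adjusted p = 0.00305). Pml gave 125, 107 and 88.8 CPM in KO and 159.6, 165 and 173 in WT.

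Of the 10 remaining members 7 fell. Ifi44, a cytosolic protein gene of the late form, gave 313.6, 251.5 and 251.6 CPM in KO and 584, 531 and 538 in WT (-1.02 ± 0.28 SE, limma adjusted p = 0.0118). Tor3a, a torsin ATPase of the endoplasmic reticulum, gave 289.5, 249 and 245 against 514, 499 and 534 CPM (-0.98 ± 0.13 SE, limma adjusted p = 8.6e-05). Nmi, whose protein binds Ifi35, gave 55.4, 42.7 and 48.5 against 89.1, 83.3 and 83.1 CPM (-0.80 ± 0.09 SE, limma adjusted p = 2.72e-05). In all 3 the groups lay apart. Ms4a4c gave 810.0, 531 and 701 against 1396, 1278 and 1272 CPM (-0.97 ± 0.36 SE, limma adjusted p = 0.0477), a call lost without any single library (up to 0.161). Trafd1, a restrainer of TLR signalling (-0.49, lost without KO replicate 2, 0.0503), Ifi35 (-0.46) and Lgals3bp, a secreted glycoprotein gene (-0.43, lost without any WT library or KO replicate 2, up to 0.103), also fell. Xaf1 (-0.47), Rtp4 (-0.21) and Ifi27l2a (-0.14) were not called. All adjusted p here are limma's with Benjamini-Hochberg adjustment.

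**Figure D2:**
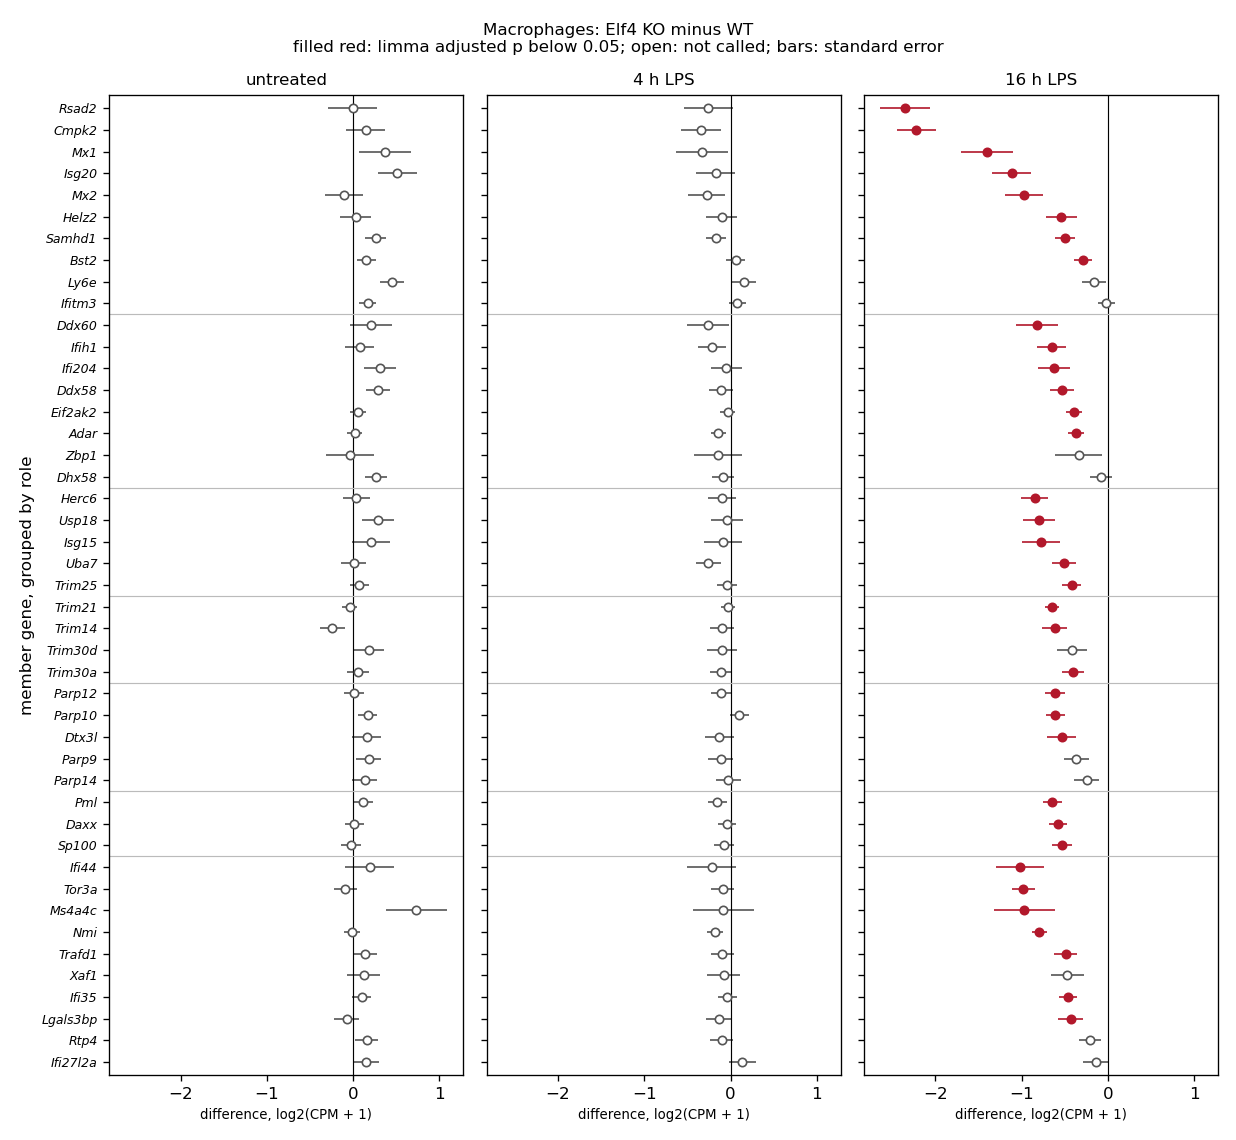
Difference KO minus WT on the log2(CPM + 1) scale for each of the 45 members in untreated macrophages and after 4 and 16 h of LPS, with standard errors, grouped by role. No member is called in the first 2 panels, and 35 are called down at 16 h, from -0.29 (Bst2) to -2.35 (Rsad2).

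The KO difference changed with time for part of the set. Between untreated cells and 16 h it moved down for 19 of 45 members and up for 0 (6.45% of all genes, 2.83% down), all 45 estimates being negative with a median of -0.61. The most negative were Cmpk2 (-2.37 ± 0.32 SE, limma adjusted p = 0.000896), Rsad2 (-2.35 ± 0.40 SE, limma adjusted p = 0.00477), Mx1 (-1.77 ± 0.43 SE, limma adjusted p = 0.024) and Isg20 (-1.63 ± 0.32 SE, limma adjusted p = 0.00876). The count depended on single libraries. It was 37 without untreated KO replicate 2, against 9 without untreated WT replicate 2, 11 without untreated WT replicate 3, 9, 12 and 10 without 16 h WT replicates 1, 2 and 3, and 10 and 12 without 16 h KO replicates 2 and 3. The 9 members called whichever library was left out were Cmpk2, Rsad2, Isg20, Nmi, Trim21, Tor3a, Pml, Parp10 and Samhd1. Between 4 and 16 h the KO difference moved down for 6, Rsad2 (-2.09 ± 0.40 SE, limma adjusted p = 0.0109), Cmpk2 (-1.87 ± 0.32 SE, limma adjusted p = 0.00678), Tor3a, Parp10, Trim21 and Nmi (4.06% of all genes, 1.92% down). The 6 were 11 without 16 h KO replicate 1, and Parp10 was lost without 4 h WT replicate 1, 16 h WT replicate 1 or 3, or 16 h KO replicate 2 (limma adjusted p up to 0.0625). Between untreated and 4 h it moved for 0 members by limma (0.00829% of all genes), with 2 at an unadjusted p under 0.05.

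Members that LPS had raised most by 4 h in WT stood lowest in KO at 16 h. Across the 45 members the WT difference between 4 h and untreated and the KO difference at 16 h had a Pearson r of -0.84 and a Spearman rho of -0.69, against -0.36 and -0.27 across all 12058 genes. The 2 differences share no library, but they share the scaling and genes are not independent, so these values are a description. Rsad2, Cmpk2 and Mx1 lie at the far end, with rises of 7.77, 6.98 and 6.23. Genes with a like rise were not alike in KO: Dhx58 and Ifi35 rose by 2.43 and 2.10 in WT, and in KO at 16 h they stood at 94.6% and 72.7% of WT, while Tor3a rose by 2.54 and stood at 50.6%.

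**Figure D3:**
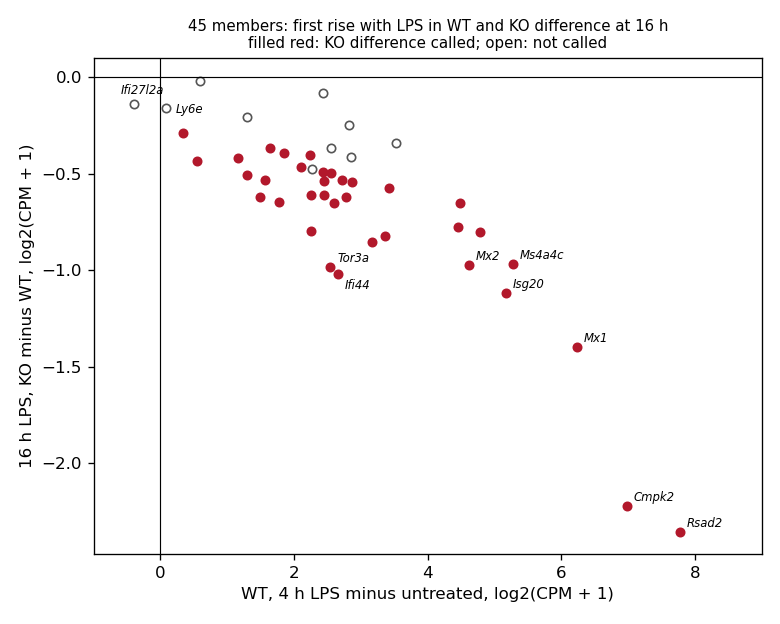
Difference between 4 h and untreated in WT macrophages (horizontal) against the KO minus WT difference at 16 h (vertical), both on the log2(CPM + 1) scale, 1 point per member. The cloud runs down to the right, with Rsad2 at 7.77 and -2.35 and Ifitm3 near 0 on the vertical axis at -0.02.

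Other values also differed between KO and WT, and those of stromal markers leaned higher in KO at every time, with overlap. The summed CPM of 6 stromal markers, all of them listed, was 818 to 2620 in KO and 480 to 898 in WT at 16 h, 361 to 1170 against 255 to 456 at 4 h, and 479 to 1520 against 336 to 609 in untreated cells, with Lum under 1 CPM in the WT groups and in untreated KO cells. The sum of 8 macrophage markers was 25100 to 30800 in KO and 20000 to 21200 in WT at 16 h, but the markers went both ways. Lyz2 (0.77), Csf1r (0.38) and Adgre1 (0.30) rose, Cd68 fell (-0.49), and Fcgr1 (-0.44), Cd14 (-0.09), Itgam (0.20) and Mertk (0.05) were not called. The part of these in the members' difference was not tested.

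Of 30 genes of the interferon pathway, chosen for their place upstream of the members, 28 were tested in macrophages. In untreated cells Socs3, which restrains cytokine signalling, rose in KO (0.67 ± 0.12 SE, limma adjusted p = 0.0151), the 1 gene of the list called there (0.44% of all genes called). At 4 h 4 fell in KO and 0 rose (4.19% of all genes called), among them Ifnb1, which encodes interferon beta, at -1.04. Irf8 (-0.82), Tmem173, the adaptor STING (-0.59), and Irf5 (-0.28) were the others. At 16 h 8 of the 28 fell and 4 rose, where 9.65% of all genes fell and 20.9% rose. Among those that fell were the ISGF3 gene Stat2 (-1.01 ± 0.19 SE, limma adjusted p = 0.00103), the receptor kinase gene Tyk2 (-0.50), Irf1 (-0.64), Irf5 (-0.63), and on the sensing side Tlr3 (-1.08), Ticam1 (-0.47) and Tbk1 (-0.34). Irf9, also of ISGF3, was not called (-0.13 ± 0.08 SE, limma adjusted p = 0.246) and its groups overlapped. Stat2 stood at 399, 319 and 307 CPM in KO and 686, 665 and 696 in WT, without overlap. Ifngr1 (0.46), Irf8 (0.34), Mavs (0.36) and Socs1 (0.47) rose, so Irf8 was lower in KO at 4 h and higher at 16 h.

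In naive CD4 T cells 42 of the 45 members were tested. Mx2, Ifitm3 and Ifi204 were under the filter in both sets. Between the libraries labelled KO and their WT, 2 members rose and 2 fell (8.03% of all genes called, 4.39% up and 3.64% down), with a median of 0.03. Ms4a4c stood at 9.59, 10.3, 10.2 and 7.03 CPM in the libraries labelled KO and 5.85, 4.44 and 3.49 in WT (0.89 ± 0.15 SE, limma adjusted p = 0.0049), and its call held without any single library. Samhd1 stood at 169.5, 205, 189 and 207 against 133, 146 and 162 CPM (0.39 ± 0.09 SE, limma adjusted p = 0.0218). Parp14 stood at 81.5, 108, 111 and 86.4 against 125, 119.8 and 135 CPM (-0.40 ± 0.11 SE, limma adjusted p = 0.0406), and Tor3a at 6.43, 7.5, 6.1 and 7.01 against 8.6, 9.06 and 8.99 CPM (-0.35 ± 0.09 SE, limma adjusted p = 0.0339). The groups did not overlap for any of the 4. Without WT replicate 1 or 2 the count was 1, and without WT replicate 3 or KO replicate 1 it was 2, with Samhd1, Parp14 and Tor3a each lost in 3 to 5 of the 7 (limma adjusted p up to 0.119). Ly6e (0.01), Helz2 (-0.03) and Sp100 (0.06) were not called.

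In naive cells with W250S the set leaned higher. Of 42 members 8 rose and 0 fell (4.16% of all genes called, 3.31% up), 39 differences were positive with a median of 0.29 against 0.07 over all genes, and 23 lay above WT without overlap (17.1% of all genes). Median-ratio scaling gave 6 members up and turned the calls over all genes from 410 up and 106 down to 209 and 174. Ifi44 stood at 3.07, 3.02 and 3 CPM in W250S and 1.02, 1.28 and 1.01 in WT (0.94 ± 0.14 SE, limma adjusted p = 0.000367). Isg15 stood at 7.59, 8.17 and 12.6 against 4.82, 5.24 and 4.77 CPM (0.79 ± 0.15 SE, limma adjusted p = 0.00457). Isg20 stood at 7.39, 7.04 and 8.33 against 3.88, 4.29 and 4.08 CPM (0.75 ± 0.12 SE, limma adjusted p = 0.00112). These groups lay apart, at levels of a few CPM. Mx1 (0.82 ± 0.15 SE, limma adjusted p = 0.00361), at 1.16, 1.3 and 1.77 against 0.347, 0.457 and 0.279 CPM, Cmpk2 (0.59 ± 0.12 SE, limma adjusted p = 0.00466) and Xaf1 (0.53 ± 0.12 SE, limma adjusted p = 0.018) rose too, as did Zbp1 and Samhd1 (0.47 and 0.42). The count was 5 without W250S replicate 1 or 2 and 4 without replicate 3, which held the highest W250S value for 34 of 45 members. Ifi44, Isg15, Isg20 and Cmpk2 kept their calls whichever library was left out, Zbp1, Samhd1 and Xaf1 did not (limma adjusted p up to 0.175), and Mx1 passed the filter only through the W250S libraries, where it was high, so its call is no support for the direction. The counts above still include Mx1. Ly6e (0.03), Sp100 (0.17) and Dtx3l (0.16) were not called. Irf7, a factor that amplifies interferon genes, was the 1 of 23 pathway genes tested that rose (0.51 ± 0.13 SE, limma adjusted p = 0.0304), where 3.31% of all genes rose. In the other naive set 2 of 23, Stat2 (-0.27) and Tmem173 (-0.35), fell in the libraries labelled KO and 0 rose. Over all genes 8.03% were called there, 3.64% down, so this count is too small to set the list apart.

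Across the 42 members the differences of the 2 naive sets, which share no library, had a Pearson r of 0.62 and a Spearman rho of 0.55, against 0.71 and 0.61 across all 12242 genes tested in both. These are descriptions across genes that share the scaling of each table. Of plasmacytoid dendritic cell markers Tcf4 and Ccr9 were listed, and their sum was 8.92 to 9.82 CPM in the libraries labelled KO against 5.75 to 5.97, and 8.78 to 9.48 in W250S against 5.09 to 6.22. T cells also express both genes, Siglech was not analysed here, and their part in the members' difference was not tested. B cell, macrophage and neutrophil markers summed to at most 2.92 CPM in any naive library, but only part of them was listed. In the set labelled KO and the W250S set these were 4 and 4 of 8 macrophage, 3 and 2 of 4 B cell, and 2 and 0 of 4 neutrophil markers. The 5 CD8 and NK markers, all listed, summed to 5.94 to 8.56 CPM in the first set and 7.24 to 9.5 in the second.

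In the Th17 cultures the same W250S genotype went with lower values. In the pathogenic culture 33 members were tested, 10 fell and 0 rose (2.06% of all genes called, 1.16% down), the median was -0.39 against 0.01 over all genes, and 21 lay below WT without overlap (11.4% of all genes). Trim30a, known to restrain TLR signalling, stood at 19.2, 29 and 19.5 CPM in W250S and 70.7, 37.2 and 43.9 in WT (-1.10 ± 0.21 SE, limma adjusted p = 0.0232), with Trim30d beside it (-1.08 ± 0.23 SE, limma adjusted p = 0.0343). Parp14 stood at 31.7, 33.8 and 25.6 against 63.9, 53.2 and 58.7 CPM (-0.93 ± 0.10 SE, limma adjusted p = 0.00187), and Eif2ak2 at 10.8, 13.8 and 10.7 against 25.3, 16.8 and 21.2 CPM (-0.78 ± 0.14 SE, limma adjusted p = 0.0179). WT replicate 1 was the highest WT library for each of these, as for 38 of 45 members, and the groups still lay apart. Lgals3bp (-0.55), Dtx3l (-0.55), Parp9 (-0.52), Samhd1 (-0.39) and Trim25 (-0.37) fell too. Uba7 (-0.67), the last of the 10, was under 1 CPM in every W250S library and passed the filter only through WT, where it was high, so its call is no support for the direction. The counts above still include Uba7. Isg15 had -1.03, uncalled, from 0.825, 2.41 and 1.07 against 6.65, 2.9 and 2.69 CPM. Ly6e (0.03), Pml (-0.19) and Helz2 (-0.47) were not called. The count was 3 without WT replicate 1, 2 without W250S replicate 1 and 1 without W250S replicate 3. Parp14 alone kept its call throughout, and the other 9 reached a limma adjusted p of up to 0.223.

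In the non-pathogenic culture 31 members were tested, 5 fell and 0 rose (7.06% of all genes called, 4.12% up and 2.94% down), and the median was -0.23 against 0.04 over all genes. Of the 31 members 12 lay below WT without overlap, against 1619 of 12821 genes (12.6%), and 1, Ifih1, lay above (19% of all genes). Isg15 stood at 0.246, 0.477 and 0.487 CPM in W250S and 1.49, 1.15 and 3.06 in WT (-0.997 ± 0.20 SE, limma adjusted p = 0.0205). It passed the filter only through the WT libraries, where it was high, so this call is no support for a lower level of the set. The counts above still include Isg15. Ifi27l2a stood at 3.42, 3.26 and 3.96 against 5.02, 5.36 and 7.61 CPM (-0.61 ± 0.13 SE, limma adjusted p = 0.0243), Parp14 at 28.7, 30.3 and 33.4 against 34.6, 44.9 and 51.5 CPM (-0.47 ± 0.12 SE, limma adjusted p = 0.035). Zbp1 (-0.46 ± 0.10 SE, limma adjusted p = 0.0272) and Lgals3bp (-0.33 ± 0.08 SE, limma adjusted p = 0.0326) completed the 5, and none of the 5 kept its call in every leave-out (limma adjusted p up to 0.157). Ly6e (0.01), Pml (-0.07) and Helz2 (-0.28) were not called. Without WT replicate 3, the highest WT library for 38 of 44 members, limma called 0 (9 at an unadjusted p under 0.05), and 0 without W250S replicate 1 or 2 (12 and 10). It called 14, all down, without WT replicate 1 and 3 without W250S replicate 3. Median-ratio scaling gave 14 down and 1 up, with 806 genes up and 908 down overall in place of 528 and 377.

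Parp14, an ADP-ribosyltransferase, and Lgals3bp were called down in both cultures. Samhd1 was called up in naive W250S cells and down in the pathogenic culture, and Zbp1 was called up in naive W250S cells and down in the non-pathogenic culture. Of 32 members tested in naive and pathogenic W250S cells 26 stood higher in the first and lower in the second (3165 of 11495 genes), and 24 of 30 did so for naive and non-pathogenic cells (2892 of 11510 genes). The tables were normalized separately and the difference between these effects was not tested. Stat2 fell in both cultures (-0.79 and -0.64), among others with Irf1 (-0.33) in the pathogenic and Socs1 (-0.32) and Ticam1 (-0.27) in the non-pathogenic one, 3 of 25 and 3 of 24 pathway genes tested, and none rose. Over all genes 2.06% were called in the pathogenic (1.16% down) and 7.06% in the non-pathogenic culture (2.94% down). The sum of 6 Th17 markers was higher in W250S, 65.1 to 105 against 40.7 to 58.9 CPM in the pathogenic and 99.6 to 137 against 53.4 to 79 CPM in the non-pathogenic culture. Of these Ccr6 was called in the pathogenic culture (0.61) while Il23r stood at -0.36, uncalled, and Ccr6 (0.79), Il17a (1.22) and Il17f (1.40) were called in the other. Of the stromal markers Lum alone was above 1 CPM, and it rose in both cultures (0.80 and 0.88), while Col1a1 in both tables and Dcn in the pathogenic one were below it. The part of either in the members' difference was not tested.

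**Figure D4:**
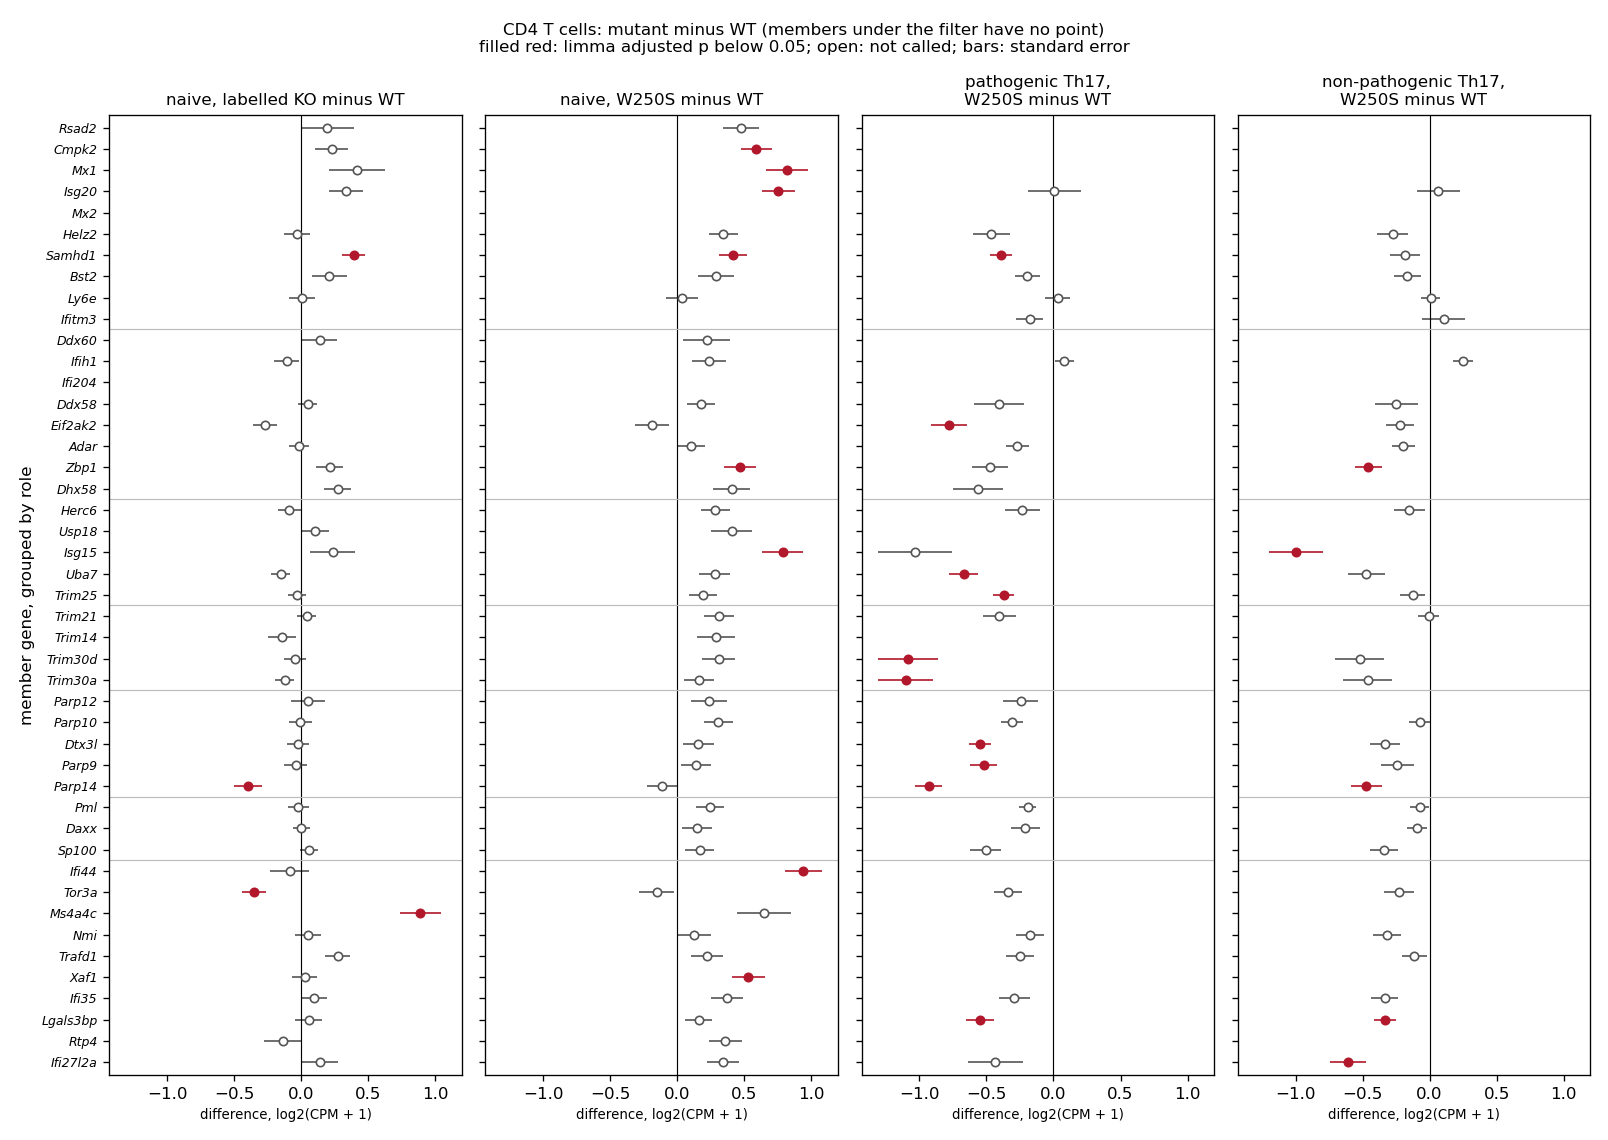
Difference from WT on the log2(CPM + 1) scale, with standard errors, for the members tested in the 4 T cell comparisons, grouped by role. Points lie mostly right of 0 in naive W250S cells (39 of 42) and mostly left of 0 in the pathogenic (30 of 33) and non-pathogenic cultures (27 of 31). These counts include Mx1 (naive W250S), Uba7 (pathogenic) and Isg15 (non-pathogenic), which passed the filter only through the group where they were high.

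**Figure D5:**
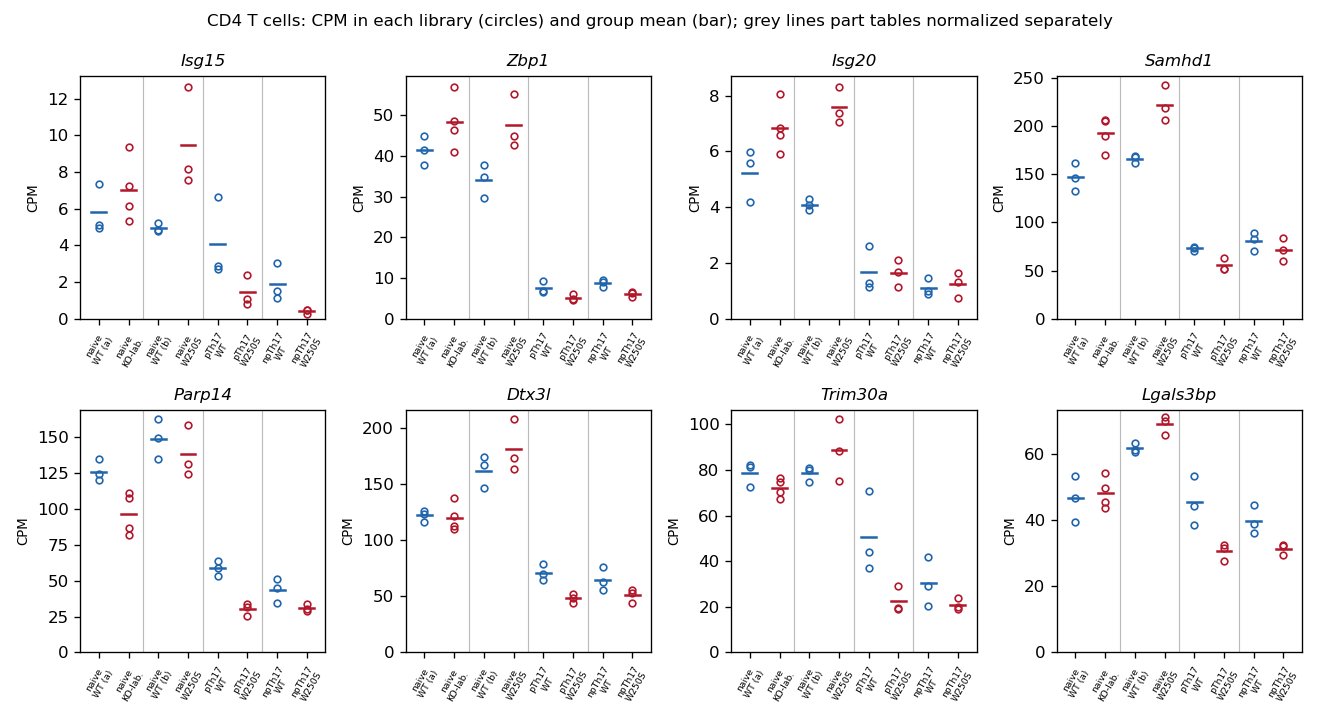
CPM of 8 members in each T cell library (circles) with group means (bars), WT (a) being the WT of the set labelled KO and WT (b) that of the naive W250S set. Grey lines part tables that were normalized separately, so levels compare within a pair. Isg15 in W250S spans 7.59 to 12.6 CPM in naive cells, above its WT, and 0.25 to 0.49 in the non-pathogenic culture, below its WT. In that culture Isg15 passed the filter only through its WT libraries, so this value is no support for a lower level of the set.

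No difference in chromatin was called at the members in naive T cells. The authors' annotation placed 152 of 86911 peaks at 43 members. Of these 80 were tested and edgeR called 0, where 4 of 47000 peaks were called in all (0.00851%, with 0.00638% up and 0.00213% down). DESeq2 called 0 member peaks. By edgeR 3 of the 80 had an unadjusted p under 0.05, a smaller share than the 4641 of 47000 over all peaks. The 3 were the Parp12 start (chr6:39117644-39118692, mm10; log2 difference 0.45, edgeR adjusted p = 0.354), a peak annotated to the Rtp4 5′ UTR (chr16:23544277-23544709; log2 difference 0.83, edgeR adjusted p = 0.393) and the Zbp1 start (chr2:173218383-173219902; log2 difference -0.19, edgeR adjusted p = 0.49). Of the 31 members with a promoter window 30 had a peak that touched it, at times barely. The Ifitm3 peak ends at 141010698, just inside a window that starts at 141010695, and held 0.668 ± 0.491 reads per 1 M reads in peaks in WT (SD, n = 3), and the Ms4a4c peak, over a stretch of its window, held 1.75 ± 0.399. The Rsad2 peak that spans the ISRE-like stretch printed above (chr12:26455887-26456945) held 26.6, 24.2 and 33 reads per 1 M reads in peaks in WT replicates 1, 2 and 3 and 28, 29.6 and 30 in the libraries labelled KO. Those of Isg15 (chr4:156200824-156201177) held 7.59, 5.18 and 5.35 against 3.5, 5.31 and 4.81. Both pairs overlapped. Without WT replicate 1, the shallowest library, 3 of 85 member peaks were called up, with 2070 of 50118 peaks called in all.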

How the data were processed

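RNA was measured in 6 macrophage groups and 8 CD4 T cell groups and open chromatin in 2 naive T cell groups. Expression was deposited by the authors as CPM, 1 table per experiment, and chromatin by the authors in estimated counts per peak. The submitters' processing notes name mm10, BWA, Bowtie2, MACS2, Partek and DESeq2, with no role or order, so the steps behind each table are not given in the sources used here. Steps between low CPM values give an estimate of depth, but 87 to 94.9% of low values came out whole within 0.05, too few to recover reads. Chromatin libraries held 6.19 to 13.7 M reads in peaks.

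Groups follow the labels. Log2(CPM + 1) was fitted with limma 3.58.1 (trended variance) under R 4.3.3. Genes needed 1 CPM or more in 3 libraries, and the 18 macrophage libraries made 1 fit while each T cell table was fitted alone. The quasi-likelihood test of edgeR 4.0.16 was applied to rounded peak counts, with DESeq2 1.42.0 as an alternative. Adjusted p are Benjamini-Hochberg values over all genes or peaks. The code was tested on simulated data. Library values are given for up to 4 called members per role at 16 h (largest difference), up to 6 called per direction elsewhere, and the 3 uncalled members with the highest CPM are named; other values were chosen after being seen. The members and lists were chosen with earlier results of these data known. 1 gene of the interferon pathway list is counted but not reported here by name. Alternatives were the pseudocount, the filter, median-ratio scaling, a replicate block, each time alone and leaving out each library.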

Additional observations from a re-analysis of the deposited data

Results flagged for a closer look

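The difference between KO and WT macrophages changed with time by a test of the interaction for 19 members between untreated cells and 16 h. On the log2(CPM + 1) scale the change was -2.37 for Cmpk2, -2.35 for Rsad2, -1.77 for Mx1, -1.63 for Isg20 and -1.09 for Usp18. It was -0.93 for Ifi204, -0.89 for Herc6, -0.89 for Tor3a, -0.82 for Ddx58, -0.78 for Nmi, -0.78 for Parp10, -0.76 for Pml and -0.76 for Samhd1. The smallest were -0.64 for Trafd1, -0.63 for Parp12, -0.61 for Trim21, -0.59 for Daxx, -0.56 for Ifi35 and -0.44 for Eif2ak2. Between 4 and 16 h the change was -2.09 for Rsad2, -1.87 for Cmpk2, -0.89 for Tor3a, -0.71 for Parp10, -0.62 for Trim21 and -0.61 for Nmi.

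In the naive libraries labelled KO 1 of the 4 stood far from the others for 4 members. These were Mx1 in replicate 2 at 3.1 CPM, Ifi44 in replicate 1 at 0.8 CPM, Trim25 in replicate 4 at 75.3 CPM and Ifi27l2a in replicate 3 at 19.5 CPM. No other RNA group held 4 libraries, and the members were looked at 1 by 1 in this group. Chance marks about 1 in 20 of such looks, so some of the 45 members would be marked by chance.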

How the results depend on the processing

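Of 181 recomputed counts 147 stayed within 1.5 times the reported count, and of 3190 single-member values 2974 kept direction and side of the threshold, 214 lost the call and 2 reversed (Ifi27l2a, 0.513 and 0.448 with median-ratio scaling). Without single libraries the calls ranged from 0 to 1 (KO against WT, untreated), 25 to 33 (16 h), 9 to 37 and 5 to 11 (KO difference, 16 h against untreated and against 4 h), 1 to 4 (naive labelled KO), 4 to 9 (naive W250S), 1 to 11 (pathogenic Th17), 0 to 14 (non-pathogenic Th17) and 0 to 3 (peaks). The 4 h libraries alone gave 1. Without the filter naive cells gave 2 (labelled KO) and 5 (W250S), and median-ratio scaling gave 15 in non-pathogenic Th17 cells. With replicate number as a block the counts were 34 and 13 for the 2 changes of the KO difference, 6 in naive cells labelled KO, 18 in naive W250S and 12 in non-pathogenic Th17 cells. Between genotypes the numbers did not clearly pair the samples, since same-number correlations ran from -0.197 to 0.324 and were not all above 0.1. Between times of 1 macrophage genotype they ran from 0.057 to 0.533 (median 0.219), against -0.484 to 0.1 (median -0.10) for different numbers. There the numbers went with the libraries, and the main fits took no account of it. An edgeR test on recovered reads was not run. Depth limits what can be said of members near 1 CPM in T cells.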
